A study of Mus musculus with 8 samples.

Results

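Genes for the enzymes that chemically alter drugs, pollutants, plant compounds and steroids were read together in the mouse distal colon. They were chosen by symbol: cytochromes P450 of families 1 to 4, UDP-glucuronosyltransferases of families 1 and 2, sulfotransferases, glutathione S-transferases of the alpha, mu, pi, theta, omega, kappa and zeta classes and aldehyde oxidases, 73 of the 16130 genes in the table. These were 35 cytochrome P450 genes (Cyp), 11 glucuronosyltransferase genes (Ugt), 7 sulfotransferase genes (Sult), 18 glutathione S-transferase genes (Gst) and 2 aldehyde oxidase genes (Aox), and 2 of them are annotated as pseudogenes (Cyp2d37-ps and Cyp4f41-ps). All 8 libraries came from Tcf4Het/+ ApcMin/+ animals, so the control animals carried both alleles too. ApcMin is a truncating allele of the tumour suppressor Apc, which gives rise to intestinal adenomas. The animals had lived for 4 months in conventional housing (NE, n = 4) or in enriched housing (EE, n = 4). Age, sex and strain background are not given in the labels, and neither is whether the libraries are from separate animals. All tests therefore measure only the spread between these samples.

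Cytochromes P450 are haem enzymes that insert oxygen into a substrate, with electrons passed on by the reductase Por. Aldehyde oxidases also oxidise, but with a molybdenum cofactor. Transferases then attach a water-soluble group (glucuronic acid, sulfate or glutathione) that lets the product leave the cell through efflux pumps. The liver is their best-known site, and the surface cells of the gut lining carry a set of their own, which meets food and bacterial products first.

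The library totals ranged from 4735764 to 10586851 counts, and the 73 genes together took 0.467% to 0.562% of the counts in the NE libraries. For EE 1 to EE 4 the share was 0.488%, 0.593%, 0.318% and 0.260%. EE 3 and EE 4 therefore lay below every NE library, EE 2 lay above every one, and the groups overlapped. EE 4 also stood apart over all genes, at 46.3 on a first principal component on which the other 7 libraries lay between −14.2 and 6.36. EE 2 alone carried pancreatic acinar transcripts: Pnlip, Cel, Ctrb1, Cpa1 and Prss2 had 26.4, 18.4, 17.4, 15.3 and 7.46 CPM there and at most 0.849 CPM in any other library. Their part in the enzyme values of EE 2 was not tested, and results are given below without EE 2 and without EE 4 where these matter. Fold changes that the authors deposited have the sign opposite to EE minus NE for 97.8% of the genes tested, and the header does not name the numerator. EE and NE stand for the column labels, and a fold change is EE minus NE on the log2 scale with its standard error (SE).

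Levels are given as CPM, counts scaled to a fixed library total with TMM adjustment. After the filter on low counts 65 of the 73 genes were tested. The 8 left untested (Cyp1b1, Cyp3a25, Cyp4f39, Cyp4f41-ps, Sult6b1, Ugt1a2, Ugt1a5 and Ugt1a8) had at most 69 counts each over the 8 libraries. No enzyme gene passed an adjusted p of 0.05 (edgeR's quasi-likelihood test, Benjamini-Hochberg), and the lowest adjusted p among them was 0.520. The background was the same, with 0% of the 14311 tested genes called. DESeq2 called 16 genes (0.0993% of 16108) and no enzyme gene, and its lowest adjusted p among the enzymes was 0.0601, for Aox4.

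Although no single gene was called, the directions were uneven. Of the 65 tested enzyme genes 53 had a lower and 12 a higher level in EE, while 49.7% of all tested genes were lower and 50.3% higher. An unadjusted edgeR p under 0.05 was reached by 11 lower genes (16.9%, against 3.75% of all genes) and by 4 higher genes (6.15%, against 5.73%). The count of 11 was 17 without EE 1, 26 without EE 2, 6 without EE 3 and 6 without EE 4. The share of all genes moved too, to 4.7%, 9.15%, 2.91% and 2.69%. Without NE 1, NE 2 and NE 3 the count was 5, 7 and 6, against 1.68%, 1.78% and 2.34% of all genes. The count of 4 was 2 without NE 1 or NE 2, against 2.9% and 3.19% of all genes. The EE values lay wholly below the NE values for 4 genes, Aox1, Cyp2j9, Cyp4v3 and Gstt1 (6.15%, against 2.02% of all genes). They lay wholly above for Aox4 and Gstm7 (3.08%, against 2.87%). The median log2 fold change of the 65 was −0.41, and that of all tested genes was 0.00. Leaving out EE 2 moved the median to −0.60, EE 3 to −0.27 and EE 4 to −0.30, so its size moved with single EE libraries. Of the tested genes 55 were lower and 10 higher without EE 2, and 51 were lower and 15 higher of the 66 tested without EE 4.

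**Figure D1:**
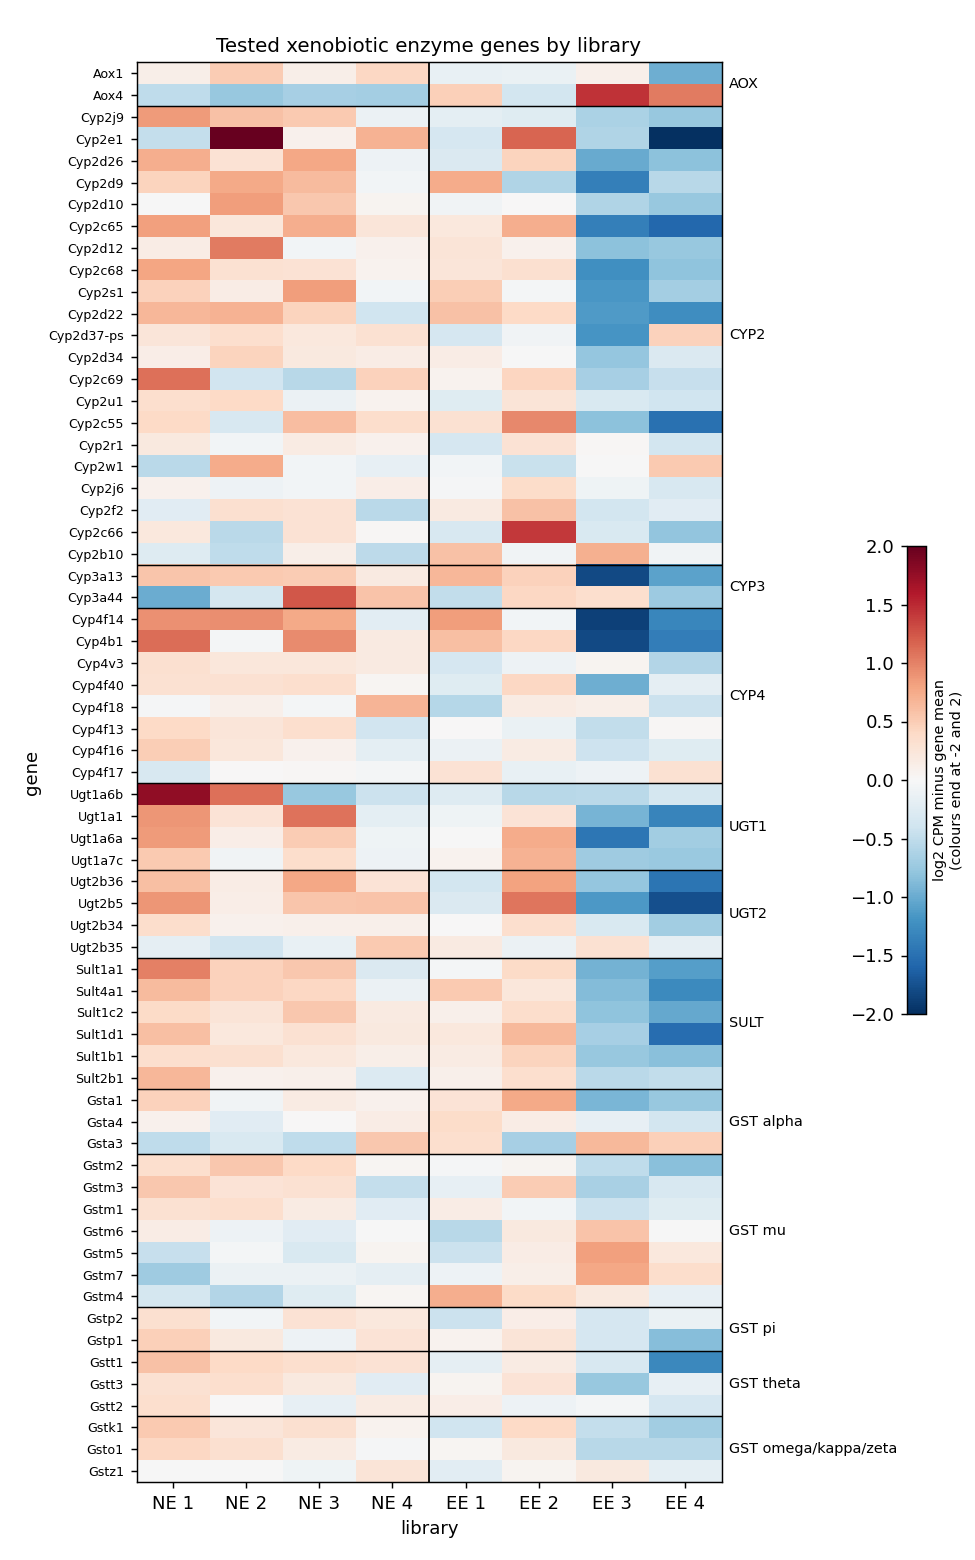
Each row is one of the 65 tested enzyme genes, grouped by class, and each column a library; the colour is the deviation of log2 CPM from the gene's own mean. Most rows are blue (low) in EE 3 and EE 4, and rows of Aox4, Gsta3, Gstm5 and Gstm7 are red there.

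The lower values came mainly from the same libraries. EE 4 held the lowest of the 8 values for 28 of the 65 genes and EE 3 for 21, which left 16 genes for the other 6 libraries. Over all tested genes EE 4 was lowest for 3719 and EE 3 for 2371 of 14311. The median of the enzyme genes' deviation from their own mean (log2 CPM) was −0.53 in EE 3 and −0.58 in EE 4. It was 0.02 in EE 1 and 0.25 in EE 2, inside or near the span of 0.07 to 0.34 of the NE libraries. In these bulk samples fewer cells of a type and less RNA per cell cannot be told apart.

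The 2 aldehyde oxidase genes went in opposite directions. Aox1 and Aox4 are neighbours on the plus strand of chromosome 1 (GRCm38, chr1:58029931-58106413 and chr1:58210397-58268597), and each encodes a molybdenum-containing oxidase of aldehydes and nitrogen rings. Aox4 had 4.11, 3.44, 3.66 and 3.65 CPM in NE 1 to NE 4 and 8.49, 4.59, 16.8 and 12.7 CPM in EE 1 to EE 4. Every EE library lay above every NE library, and the EE values differed among themselves far more than the NE values did (3.71 ± 0.28 SD in NE and 10.6 ± 5.26 SD in EE, n = 4 each). Its log2 fold change was 1.53 (SE 0.36, adjusted p = 0.520 by edgeR), which was the largest of the 65 tested genes, and it ranged from 1.23 to 1.77 with single libraries left out.

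Aox1 had 4.42, 5.88, 4.41 and 5.47 CPM in NE against 3.61, 3.64, 4.38 and 1.90 CPM in EE. The groups did not overlap, but EE 3 lay only just below the lowest NE library, and the log2 fold change was −0.57 (SE 0.29), or −0.36 without EE 4. The ratio of Aox4 to Aox1 CPM was 0.93, 0.59, 0.83 and 0.67 in NE and 2.35, 1.26, 3.83 and 6.67 in EE, so Aox1 was the higher of the pair in every NE library and Aox4 in every EE library. Their summed level was 8.07 to 9.32 CPM in NE against 12.1, 8.23, 21.2 and 14.6 CPM in EE. The sum, most of it Aox4 in EE 3 and EE 4, thus did not share the low values of those libraries. Aox1 itself had its lowest value in EE 4, at 1.90 CPM. Both genes were rare, with 226 counts of Aox1 and 366 of Aox4 over all libraries. The bases before the 2 start sites are shown because these neighbours differed in direction; they are from RefSeq (GRCm38.p6, plus strand, chr1:58029719-58029968 and chr1:58210147-58210396), with capitals where the letters GCGTG, the core to which the aryl hydrocarbon receptor binds, occur on either strand.
Aox1: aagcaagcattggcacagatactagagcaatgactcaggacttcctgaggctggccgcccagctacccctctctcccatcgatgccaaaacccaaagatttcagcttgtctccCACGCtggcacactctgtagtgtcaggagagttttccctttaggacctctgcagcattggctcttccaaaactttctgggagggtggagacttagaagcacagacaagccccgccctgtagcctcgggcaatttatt
Aox4: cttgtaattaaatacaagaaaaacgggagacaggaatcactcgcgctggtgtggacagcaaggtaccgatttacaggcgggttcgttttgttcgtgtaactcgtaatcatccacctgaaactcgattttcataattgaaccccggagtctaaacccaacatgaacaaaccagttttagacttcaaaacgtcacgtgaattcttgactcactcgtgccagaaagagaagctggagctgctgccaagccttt
The RefSeq start site of Aox1 lies 38 bases past the gene start given above, and that of Aox4 lies at the gene start. The core occurs once before Aox1, on the opposite strand, and not before Aox4. It is common: 32.4% of the 32851 mouse promoters searched (both strands, the bases just after the start included) and 28.9% of the 76 promoters matched to 62 of the enzyme genes hold it.

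**Figure D2:**
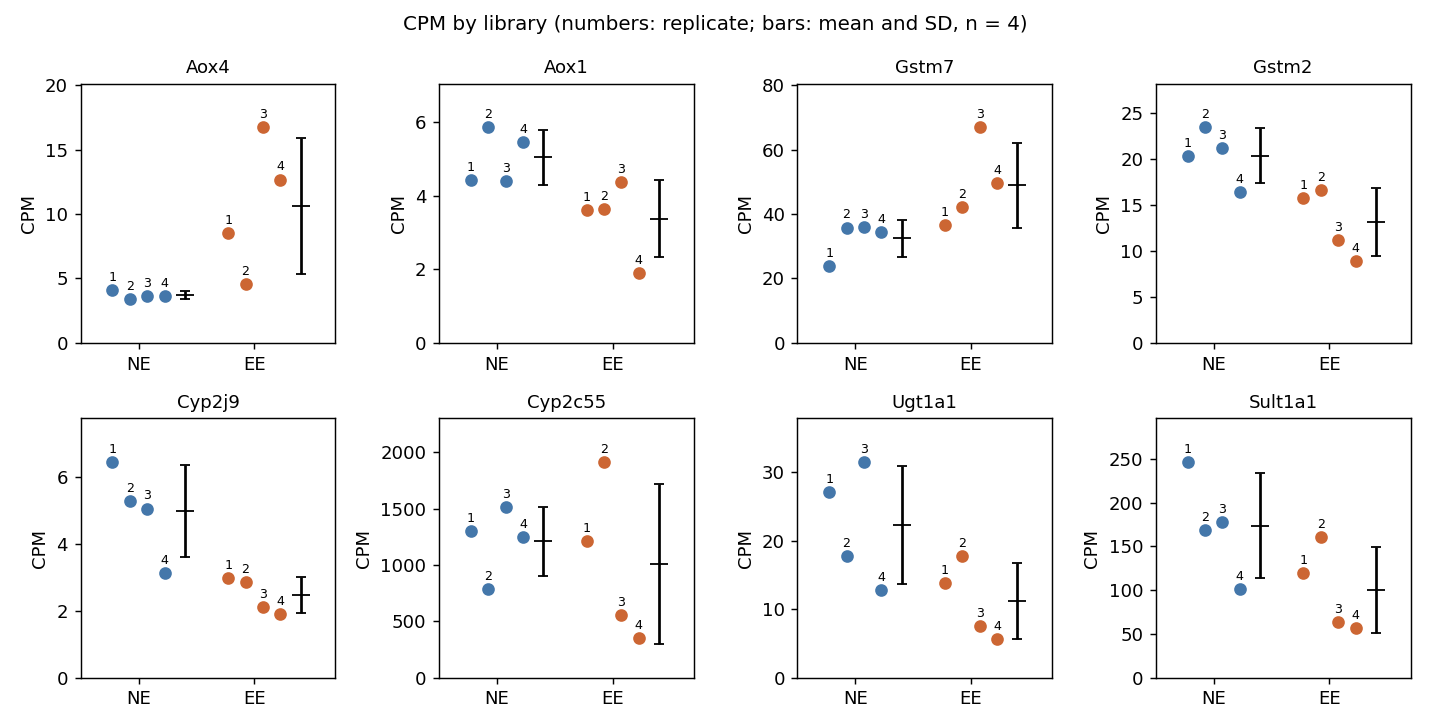
CPM of 8 enzyme genes in each library, with the replicate number beside each point and the mean and SD of each group (n = 4) as a bar. Aox4 and Gstm7 lie higher in all 4 EE libraries and Aox1 and Cyp2j9 lower, while Gstm2, Cyp2c55, Ugt1a1 and Sult1a1 overlap between groups and are lowest in EE 3 and EE 4.

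Cytochrome P450 family 2, which acts on drugs, steroids and fatty acids, had 21 genes and all were tested. Of these 18 were lower and 3 higher in EE (median −0.52). With single libraries left out the median ranged from −0.67 to −0.33, the latter without EE 3. Cyp2j9, an arachidonic acid hydroxylase, had 6.47, 5.30, 5.07 and 3.15 CPM in NE against 2.97, 2.87, 2.12 and 1.90 CPM in EE. All 4 EE libraries lay below all 4 NE libraries, with a log2 fold change of −1.03 (SE 0.30). Its neighbour Cyp2j6 had 109 to 128 CPM in NE against 93.5 to 150.1 CPM in EE (log2 fold change −0.01, SE 0.15). Cyp2b10, the classical target of the xenobiotic receptor CAR, was one of the 3 higher genes. It had 5.68, 4.73, 7.41 and 4.64 CPM in NE against 10.4, 6.51, 11.3 and 6.5 CPM in EE, and its log2 fold change was 0.62 (SE 0.27). NE 3 lay above EE 2 and EE 4, so the groups overlapped.

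The Cyp2c genes oxidise drugs, retinoids and fatty acids, and 5 of them stood in the table, in one stretch of chromosome 19. Cyp2c55, a colon-enriched member, was the most abundant of all 73 genes, both in CPM and per length (556 CPM per kb of exon). It had 1297, 786, 1512 and 1247 CPM in NE against 1209, 1917, 556 and 349 CPM in EE. EE 2 was the highest of the 8 libraries and EE 3 and EE 4 were the lowest. The log2 fold change was −0.26 (SE 0.45). It was −0.78 without EE 2 and 0.02 without EE 4. Cyp2c65 had 202, 134, 190.5 and 136 CPM in NE against 134, 191, 44.3 and 38.5 CPM in EE, with a log2 fold change of −0.71 (SE 0.45). That fold change was −1.21 without EE 2 and −0.44 without EE 4. Again EE 3 and EE 4 alone lay clearly below the NE range. Cyp2c68 (−0.63, SE 0.33) and Cyp2c69 (−0.42, SE 0.44) were lower too, and Cyp2c66 was higher (0.25, SE 0.50) through EE 2, at 9.19 CPM against 1.74 to 4.04 CPM in the other 7 libraries, and at −0.55 without EE 2.

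All but Cyp2c55 share much sequence with relatives. The coding stretch of the haem-binding loop, the conserved loop whose cysteine holds the haem iron, is shown for 3 of them from GENCODE M21 transcripts, with capitals for bases that differ from Cyp2c55.
Cyp2c55: ttctcaataggaaagcgaatgtgcgtggga
Cyp2c65: ttctcaaCaggaaaAcgGatTtgTgtggga
Cyp2c68: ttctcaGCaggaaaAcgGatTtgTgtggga
Cyp2c65 differs from Cyp2c55 at 5 of 30 bases, Cyp2c66 is identical to Cyp2c65 here, and Cyp2c69 is identical to Cyp2c68. Over whole transcripts 54.3% of the 50-base stretches of Cyp2c69, 43.3% of Cyp2c68, 20.7% of Cyp2c65 and 19.5% of Cyp2c66 also occur in another gene, so the counts of these 4 may be split by the read assignment. For Cyp2c55 the share is 0.514%. Reads were 50 bases long. The same 4 genes carry the letters CAAAGTCC, a site of the hepatocyte and gut factor HNF4, in their promoters, and these bases are shown with the site in capitals (RefSeq, GRCm38.p6). The positions are chr19:39060870-39060917 (plus), chr19:39113774-39113821 (plus), chr19:39741151-39741198 (minus) and chr19:39886817-39886864 (minus).
Cyp2c65: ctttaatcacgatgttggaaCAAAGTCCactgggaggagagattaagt
Cyp2c66: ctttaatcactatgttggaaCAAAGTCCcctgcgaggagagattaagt
Cyp2c68: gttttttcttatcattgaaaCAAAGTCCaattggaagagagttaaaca
Cyp2c69: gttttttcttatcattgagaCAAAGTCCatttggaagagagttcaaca
Over these 48 bases Cyp2c65 and Cyp2c66 differ at 3 positions, Cyp2c68 and Cyp2c69 at 3, and Cyp2c65 and Cyp2c68 at 17. Cyp2c65 and Cyp2c66 are thus near copies here, as are Cyp2c68 and Cyp2c69, so these are not 4 independent matches. Whether all 4 sites share an origin was not tested. The site begins 116, 104, 77 and 75 bases before the start. It was also matched in Cyp4f18 and Sult1b1, in all in 6 of the 76 enzyme promoters (7.89%) and in 1.42% of all promoters. The promoter of Cyp2c55 (chr19:39006769-39007018, plus), shown because it belongs to the most abundant gene, has no such match.
Cyp2c55: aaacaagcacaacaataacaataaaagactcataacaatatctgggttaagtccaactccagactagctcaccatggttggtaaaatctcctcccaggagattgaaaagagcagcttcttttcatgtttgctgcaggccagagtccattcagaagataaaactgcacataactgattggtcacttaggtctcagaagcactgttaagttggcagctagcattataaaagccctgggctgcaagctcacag
Of the 5 other motifs searched on both strands, GTTAAT (an HNF1 half-site) was in 13.2% of enzyme promoters and 7.10% of all. AGTTCA (a nuclear receptor half-site) was in 9.21% and 13.99%, TGACNNNGC (the antioxidant response element) in 11.8% and 12.4%, and ATCAAAG (a TCF/LEF site) in 0% and 3.73%. The letters CAAAG are common to the HNF4 and TCF/LEF motifs, so one stretch could match both. A match is a description of letters, and binding was not measured.

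The Cyp2d genes, relatives of the human debrisoquine hydroxylase, lie together on chromosome 15, and all 7 in the table were lower in EE. Cyp2d26 had 67.1, 49.7, 69.3 and 37.6 CPM in NE against 33.1, 55.3, 19.9 and 22.8 CPM in EE (log2 fold change −0.78, SE 0.31). That fold change was −1.16 without EE 2 and −0.64 without EE 4. Cyp2d10 had 15.2, 27.5, 22.2 and 15.9 CPM in NE against 14.4, 15.3, 9.97 and 8.88 CPM in EE (−0.75, SE 0.25). For Cyp2d26 EE 2 lay inside the NE range, and for Cyp2d10 only EE 2 lay above the lowest NE library. The other 5, Cyp2d34, Cyp2d9, Cyp2d12, Cyp2d22 and the pseudogene Cyp2d37-ps, had log2 fold changes from −0.76 to −0.43. Another member, Cyp2e1, the ethanol-inducible P450, varied most within groups, from 3.63 to 21.8 CPM in NE and from 0.63 to 12.1 CPM in EE (−0.998, SE 0.73). Its fold change was −1.91 without EE 2 and −0.61 without EE 4.

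Family 3 holds the main drug-oxidising P450 genes of the gut. Cyp3a13, the most abundant of them here, had 248, 241, 239 and 191 CPM in NE against 267, 233, 47.7 and 79.7 CPM in EE. EE 1 and EE 2 lay inside or above the NE range, and EE 3 and EE 4 lay well below it. The log2 fold change was −0.55 (SE 0.45), and it was −0.94 without EE 1 and −0.25 without EE 3. Cyp3a44 had 1.26 to 7.04 CPM in NE against 1.59 to 3.83 CPM in EE (−0.46, SE 0.52), and its direction rested on NE 3, without which it was 0.10. Family 1 was represented by Cyp1b1 alone, at 1.11 to 1.33 CPM in NE against 0.16 to 1.27 CPM in EE, and was not tested.

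Family 4 enzymes hydroxylate the ends of fatty acids and eicosanoids. Of 8 tested genes 7 were lower in EE (median −0.39, and −0.49 to −0.34 with single libraries left out). Cyp4v3 had the narrowest NE spread relative to its mean, with 24.0, 22.4, 22.4 and 21.5 CPM in NE against 15.1, 17.8, 19.9 and 12.7 CPM in EE. All EE libraries lay below all NE libraries, and the log2 fold change was −0.46 (SE 0.16). Cyp4f14, a leukotriene-inactivating enzyme, had 152, 154, 136 and 69.3 CPM in NE against 144, 77.1, 21.9 and 32.3 CPM in EE (−0.91, SE 0.51). Its fold change was −1.56 without EE 1, −0.97 without EE 2 and −0.67 without EE 4. Its values overlapped between groups, as did those of Cyp4b1, which had 16.2 to 36.3 CPM in NE against 4.53 to 25.5 CPM in EE (−0.86, SE 0.51). Cyp4f16 was lower by less (−0.32, SE 0.18), and Cyp4f17 was the higher one (0.19, SE 0.25).

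Glucuronosyltransferases gave the lowest median of the conjugating classes. Of the 8 tested, 7 were lower in EE, with a median of −0.63; it was −1.16 without EE 2, −0.38 without EE 3 and −0.41 without EE 4. Ugt1a1, the enzyme that conjugates bilirubin, had 27.2, 17.8, 31.5 and 12.8 CPM in NE against 13.8, 17.8, 7.56 and 5.71 CPM in EE. EE 3 and EE 4 lay below all NE libraries and EE 1 and EE 2 inside the NE range, and the log2 fold change was −1.01 (SE 0.38). Ugt1a7c, the most abundant Ugt1 gene, had 72.1 to 112 CPM in NE against 46.3 to 126 CPM in EE (−0.25, SE 0.31; −0.62 without EE 2 and −0.08 without EE 4), and Ugt1a6a, which prefers small phenols, had 17.6 to 33.9 and 6.65 to 31.2 CPM (−0.55, SE 0.40).

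The Ugt1 genes are alternative first exons spliced to the same later exons, and 52.1% to 79.8% of the 50-base stretches of each occur in another gene. How the reads of shared exons were assigned is not given in the sources used here, and the split among Ugt1 genes is uncertain. Ugt1a6b had 50, 34, 12 and 9 counts in NE and 8, 7, 9 and 10 counts in EE. Its log2 fold change of −1.33 (SE 0.60) rested on NE 1 and NE 2, and it was −0.71 without NE 1. Ugt1a8 had 23, 14, 0 and 1 counts in NE and no count in any EE library, which allows up to 0.634, 0.552, 0.479 and 0.494 CPM in EE 1 to EE 4 by counting error alone. NE 3 and NE 4 were close to the EE libraries for both genes.

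Family 2 glucuronosyltransferases conjugate steroids and bile acids. Ugt2b34 was the third most abundant enzyme gene per length (155 CPM per kb) and had 835, 690, 698 and 700 CPM in NE against 658, 826, 528 and 401 CPM in EE (−0.28, SE 0.21; −0.47 without EE 2 and −0.12 without EE 4). EE 2 lay near the top and EE 3 and EE 4 below all NE libraries. Ugt2b5 had 14.3 to 24.3 CPM in NE against 10.6, 27.9, 5.74 and 3.65 CPM in EE (−0.71, SE 0.51), and Ugt2b36 showed the same order of EE libraries at a lower level (−0.80, SE 0.48). Without EE 2 these fold changes were −1.57 for Ugt2b5 and −1.51 for Ugt2b36. Without EE 4 they were −0.40 and −0.50. Ugt2b35 was the exception, with 28.9 to 54.7 CPM in NE against 33.3 to 47.0 CPM in EE (0.07, SE 0.21).

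Sulfotransferases attach sulfate from the donor PAPS. All 6 tested genes were lower in EE (median −0.52), and EE 4 was the lowest of the 8 libraries for 5 of them and EE 3 for 1. Sult1a1, which sulfates phenols, had 247, 169, 178 and 100.9 CPM in NE against 119, 161, 63.5 and 57.2 CPM in EE (−0.80, SE 0.35). Its fold change was −1.13 without EE 2 and −0.61 without EE 4. Sult1d1, which sulfates catechols and amines, had 510, 389, 413 and 384 CPM in NE against 390, 526, 211 and 117 CPM in EE (−0.45, SE 0.37; −0.83 without EE 2 and −0.18 without EE 4). Sult1b1, which sulfates thyroid hormones and phenols, had 195, 192, 179 and 168 CPM in NE against 174, 211, 91.6 and 86.6 CPM in EE (−0.39, SE 0.26; −0.65 without EE 2 and −0.21 without EE 4). In all 3 EE 3 and EE 4 lay below the NE range and EE 1 and EE 2 inside or above it. The log2 fold changes of Sult1c2, Sult4a1 and Sult2b1 were −0.59 (SE 0.28), −0.64 (SE 0.43) and −0.29 (SE 0.25). The class median was −0.83 without EE 2 and −0.29 without EE 4.

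Glutathione S-transferases differed among themselves. Of the 18, all tested, 12 were lower and 6 higher in EE, and those 6 were 2 alpha and 4 mu genes. The median was −0.24, and it was −0.37 without EE 2, −0.15 without EE 3, −0.15 without EE 4 and −0.14 without NE 1. The pi, theta, omega, kappa and zeta genes were all lower, from −0.75 to −0.07. Gstt1, which acts on small halogenated compounds, had 19.4, 16.9, 16.2 and 15.7 CPM in NE against 11.3, 14.4, 10.1 and 5.07 CPM in EE. The groups did not overlap, and the log2 fold change was −0.75 (SE 0.26). Its neighbours Gstt3 (−0.28, SE 0.22) and Gstt2 (−0.18, SE 0.15) were closer to 0. Gsto1, the most abundant Gst gene per length (186 CPM per kb), had 486, 456, 412 and 359 CPM in NE against 375, 418, 249 and 250 CPM in EE (−0.41, SE 0.19), and the mitochondrial and peroxisomal Gstk1 had 39.1 to 53.8 and 22.8 to 49.4 CPM (−0.54, SE 0.23). Gstp1 and Gstp2, neighbours that share 33.7% and 54.3% of their 50-base stretches with other genes, were both at −0.38 to −0.39 (SE 0.23 and 0.19). Gstz1, which also degrades tyrosine, was at −0.07 (SE 0.14).

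Among the alpha genes, which detoxify lipid peroxidation products, Gsta3 had 30, 34.5, 29.8 and 62.2 CPM in NE against 53.9, 26.8, 67.2 and 59.5 CPM in EE (0.41, SE 0.31). NE 4 lay with the high EE libraries and EE 2 below all NE libraries. Gsta4 had 67.1 to 87.8 CPM in NE against 60.9 to 102 CPM in EE (0.01, SE 0.17), and Gsta1 was at −0.19 (SE 0.39), with 90.5% of its 50-base stretches found in other genes.

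The 7 mu genes form one cluster on chromosome 3 (GRCm38, chr3:107895821-108044894). In genome order the log2 fold changes were 0.43 (SE 0.23) for Gstm5, 0.59 (SE 0.20) for Gstm7, 0.16 (SE 0.23) for Gstm6, −0.31 (SE 0.30) for Gstm3, −0.65 (SE 0.22) for Gstm2, −0.29 (SE 0.16) for Gstm1 and 0.60 (SE 0.26) for Gstm4. The 3 genes at one end were higher, the next 3 were lower and the last was higher. Gstm7 had 23.8, 35.8, 35.9 and 34.3 CPM in NE against 36.5, 42.3, 67.1 and 49.8 CPM in EE, so every EE library lay above every NE library, EE 1 by a margin smaller than the NE spread. Gstm2 had 20.4, 23.5, 21.2 and 16.4 CPM in NE against 15.7, 16.7, 11.2 and 8.88 CPM in EE, with EE 2 just above NE 4. The ratio of Gstm7 to Gstm2 CPM was 1.17, 1.52, 1.69 and 2.09 in NE and 2.32, 2.54, 6 and 5.61 in EE. This pair was picked after its values were seen, so no test is given.

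Gstm5, the most abundant mu gene, had 65.8, 87.7, 73.0 and 94.3 CPM in NE against 66.9, 100.7, 159 and 105 CPM in EE, and EE 1 lay at the bottom of the NE range. Gstm4 had 4.58, 3.87, 4.97 and 6.13 CPM in NE against 9.98, 7.85, 6.80 and 5.23 CPM in EE, with the highest values in EE 1 and EE 2 and not in EE 3 and EE 4. The mu median of 0.16 became −0.03 without EE 3 and 0.33 without EE 1, so its sign was not stable. Of the mu genes Gstm3 and Gstm1 share 28.8% and 18.9% of their 50-base stretches with other genes, mostly pseudogenes.

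**Figure D3:**
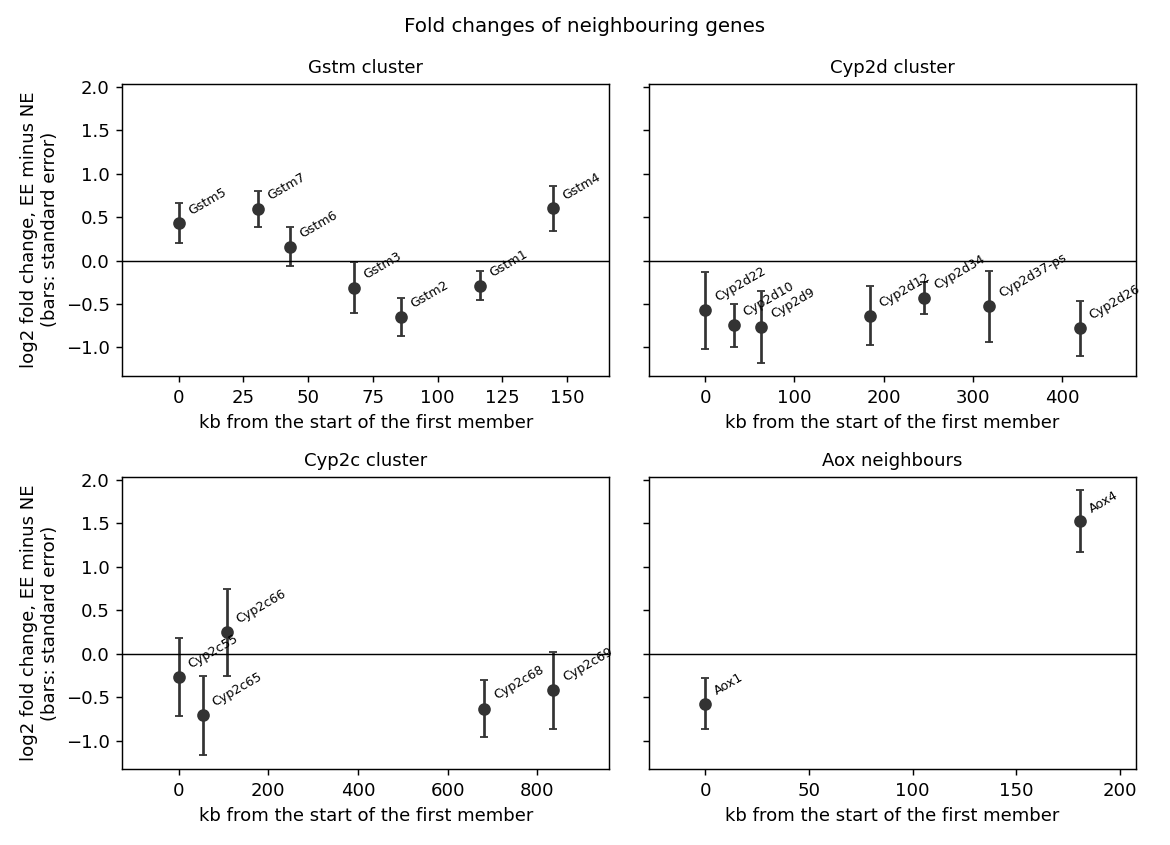
Log2 fold change (EE minus NE, bars are SE) of genes in 4 clusters against the distance of each gene's start from that of the first member. The Cyp2d genes are all below 0, the Gstm and Cyp2c genes lie on both sides, and Aox1 and Aox4 lie at −0.57 and 1.53.

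Side by side, the summed CPM of a class show where the classes differed. The summed P450 level was 2600, 1979, 2777 and 2206 CPM in NE against 2340, 3049, 1042 and 899 CPM in EE. EE 3 and EE 4 lay far below the lowest NE library, and EE 2 above the highest. Most of the P450 sum in EE 2 was Cyp2c55, with 1917 CPM there. The sulfotransferase sum was 1062, 843, 877 and 735 CPM in NE against 769, 999, 414 and 304 CPM in EE. Here too EE 3 and EE 4 were the lowest, but EE 2 lay below NE 1. The glucuronosyltransferase sum was 1083, 858, 916 and 883 CPM in NE against 832, 1071, 645 and 505 CPM in EE. Ugt2b34 was most of it in every library, with 690 to 835 CPM in NE and 401 to 826 CPM in EE. The glutathione S-transferase sum differed least between libraries, with 1098, 1056, 981 and 974 CPM in NE against 954, 1038, 890.4 and 775 CPM in EE, and its mu part was 234 to 269 CPM in NE against 229, 268, 325 and 252 CPM in EE.

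As shares of all enzyme CPM, glutathione S-transferases made up 17.7% to 22.3% in NE and 19.4%, 16.8%, 29.6% and 31.0% in EE. P450 genes made up 41.7% to 50.0% in NE and 47.7%, 49.5%, 34.6% and 36.0% in EE. The makeup of EE 1 and EE 2 thus lay inside or close to the NE span, and that of EE 3 and EE 4 did not. These shares sum to a whole, so one cannot rise without another falling, and 5 genes (Cyp2c55, Ugt2b34, Gsto1, Sult1d1 and Cyp3a13) held 57.8% of the total. No test between classes was made.

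**Figure D4:**
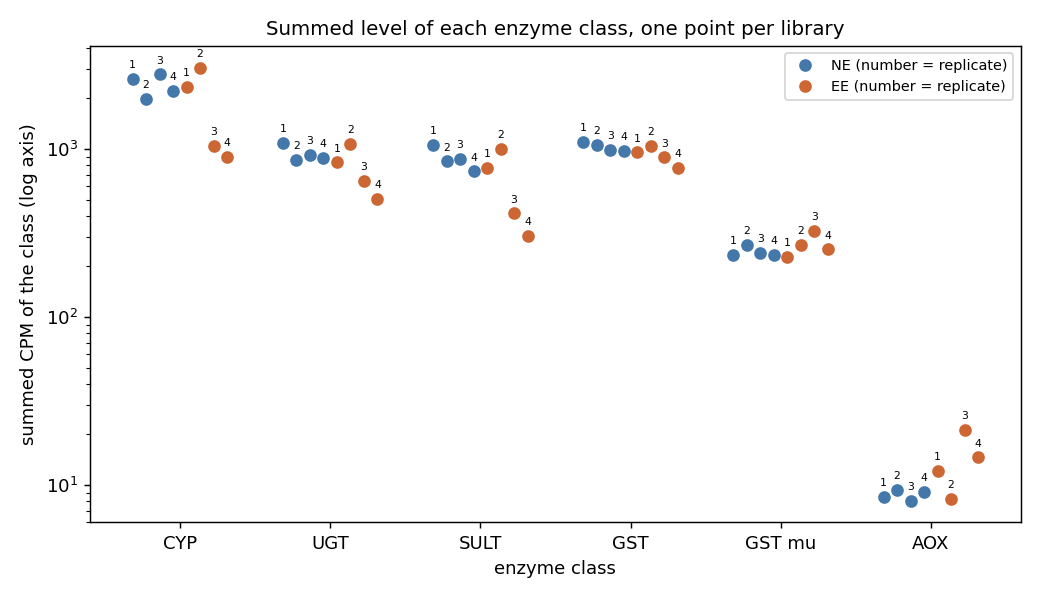
Summed CPM of each enzyme class on a log axis, one point per library with its replicate number. EE 3 and EE 4 are the lowest points for P450, Ugt, Sult and all Gst genes, but not for the mu genes or the aldehyde oxidases.

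**Figure D5:**
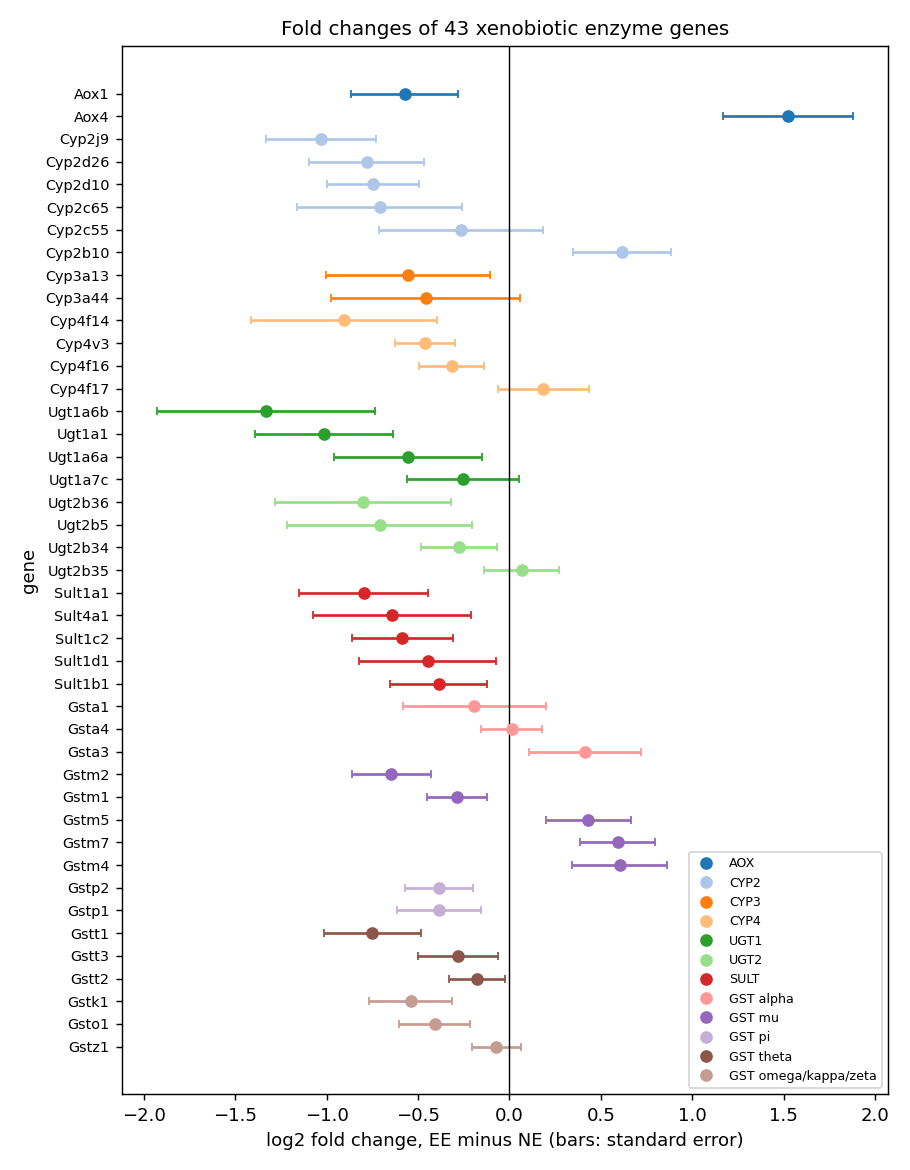
Log2 fold change (EE minus NE) with its SE for the 43 enzyme genes chosen by the naming rule, coloured by class. All Ugt1 and Sult genes shown lie below 0, the Gst alpha and mu genes on both sides, and Aox4 lies highest at 1.53.

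The lower direction was seen both among genes that share little sequence with relatives and among those that share much. The part of read assignment in it was not tested. Of 37 tested genes with under 5% of shared 50-base stretches, 28 were lower (median −0.36), and of 15 with over 20% shared all 15 were lower (median −0.55). Exons of 18 of the 73 genes overlap a gene on the opposite strand and 12 overlap one on the same strand; whether counting used the strand is not given in the sources used here.

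In the authors' deposited table an FDR under 0.05 was given for 10 of the 73 enzyme genes, against 2.39% of all 16130 genes. In 9 of these the deposited log2 fold change was positive, which goes with higher NE columns, as it was in 1.32% of all genes: Cyp4f14 (1.07), Cyp2c65 (0.92), Cyp3a13 (0.82), Sult1a1 (0.80), Cyp4b1 (0.75), Ugt1a1 (0.72), Cyp2d26 (0.71), Ugt1a8 (0.67) and Cyp2s1 (0.62). The exception in the authors' deposited table was Aox4 (−0.76, FDR 0.000608). None of the 10 was called by DESeq2 here, nor by edgeR among the 9 that it tested.

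Regulators, cofactor enzymes, further detoxifying enzymes and transporters were read from the same fit, and none of their genes passed. Of 15 tested receptors and regulators 12 were lower (median −0.29). Ppara, a nuclear receptor for fatty acids, had 18.8, 16.8, 18.6 and 12.4 CPM in NE against 8.49, 14.9, 5.14 and 6.82 CPM in EE (−0.93, SE 0.30). The bile acid receptor Nr1h4 had 83.0 to 105 CPM in NE against 39.6 to 94.7 CPM in EE (−0.59, SE 0.23). The most abundant regulator, Hnf4a, had 432 to 687 CPM in NE against 306 to 547 CPM in EE (−0.37, SE 0.20). Ahr, the aryl hydrocarbon receptor, was among the 3 higher regulators. It had 44.8 to 59.2 CPM in NE against 47.5 to 79.9 CPM in EE (0.37, SE 0.17). Nr1i3 (CAR) was rare, at 2.1 CPM on average, with a log2 fold change of −0.06 (SE 0.35). For all of these regulators the groups overlapped.

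Of 17 electron donor and cofactor genes 11 were lower (median −0.10). Ugdh, which makes the glucuronic acid donor, had 543, 357, 368 and 293 CPM in NE against 276, 440, 160 and 134 CPM in EE (−0.63, SE 0.35), the order of EE libraries seen in the Ugt sum. Papss1, which makes the sulfate donor, was at −0.36 (SE 0.19). Por, the electron donor of the P450 enzymes, was not lower. It had 74.8 to 83.7 CPM in NE against 137, 88.2, 77.7 and 95.9 CPM in EE (0.33, SE 0.17).

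Of 35 other xenobiotic enzyme genes 34 were lower (median −0.43). Fmo1, a flavin monooxygenase, had 8.53, 7.597, 6.10 and 8.62 CPM in NE against 3.82, 5.17, 4.53 and 2.54 CPM in EE, without overlap (−0.94, SE 0.26). Adh1, the main alcohol dehydrogenase, had 405 to 617 CPM in NE against 247 to 430 CPM in EE (−0.69, SE 0.21), and Maoa, which oxidises amines, 625 to 1108 and 265 to 901 CPM (−0.67, SE 0.36). Of 14 transporters 10 were lower (median −0.39). The pump Abcb1a was among them, with 370 to 572 CPM in NE against 175 to 495 CPM in EE (−0.44, SE 0.32). The pumps that export conjugates went both ways: Abcc3 had 151 to 298 CPM in NE against 97.0 to 218 CPM in EE (−0.49, SE 0.26) and Abcg2 was at −0.55 (SE 0.31), while Abcc1 was at 0.40 (SE 0.19) and Abcc2 and Abcc4 were higher. Abcc2 had 13.6, 36.7, 22.1 and 21.9 CPM in NE against 37.4, 25.6, 53.0 and 64.4 CPM in EE (0.94, SE 0.33), and Abcc4 was at 0.55 (SE 0.20).

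P450 genes outside families 1 to 4, which act on sterols, vitamins and hormones, had no common direction, with 4 lower and 4 higher of 8 tested (median 0.00). Cyp21a1, a steroid hydroxylase, had 0.79 to 2.65 CPM in NE against 2.30 to 8.92 CPM in EE (1.56, SE 0.45). Cyp27a1, which oxidises cholesterol side chains, had 29.1 to 42.2 CPM in NE against 70.1, 28.7, 65.1 and 66.1 CPM in EE (0.60, SE 0.25). Cyp51, of cholesterol synthesis, was the most abundant (−0.11, SE 0.18).

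Cell type markers differed too, some lists in the direction of the enzymes and others not, and their part in the result was not tested. Of 15 mature colonocyte markers, all in the table and none at 0 in any library, 14 were lower (median −0.42). Their summed level was 7258 to 12682 CPM in NE against 8326, 9915, 3997 and 4684 CPM in EE, so EE 3 and EE 4 were lowest here as well. All 10 goblet cell markers were lower (median −0.47, sums of 23804 to 29936 CPM in NE against 11268 to 27573 CPM in EE, none at 0). In contrast 14 of 15 crypt and Wnt target genes were higher (median 0.71), with sums of 1102 to 1385 CPM in NE against 1836, 1204, 2124 and 2605 CPM in EE, and all 14 cell division genes were higher (median 0.44, sums of 1081 to 1152 and 1240 to 1851 CPM).

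Hepatocytes also express many of these enzymes. Of 10 hepatocyte markers 7 (Ahsg, Apoa2, Apoc3, Fga, Fgb, Hamp and Serpina1a) were not in the table, and the other 3 summed to 53.8 to 76.4 CPM in NE against 51.9 to 105 CPM in EE. Of these Alb had 5.53, 20.1, 5.35 and 9.12 CPM in NE against 39.3, 7.66, 20.1 and 46.6 CPM in EE (1.51, SE 0.56), and Tat and Ttr were at −0.26 (SE 0.25) and −0.09 (SE 0.20). Of 10 small intestine enterocyte markers 9 were in the table, 7 of 8 tested were lower (median −0.46), and sums were 852 to 1081 CPM in NE against 380 to 912 CPM in EE. Sis, the gut disaccharidase sucrase-isomaltase, had 52.3, 29.7, 25.3 and 16.9 CPM in NE against 5.10, 17.0, 2.72 and 6.34 CPM in EE (−2.01, SE 0.51), and it was one of the 16 genes that DESeq2 called (adjusted p = 0.0456). Apoa4 was at 0 in at least 1 library. Of 7 pancreatic acinar markers only Cela1 was tested (−0.08), and Cel, Cpa1, Ctrb1, Pnlip and Prss2, the 5 that EE 2 alone carried, were at 0 in at least 1 library. The list summed to 190 to 289 CPM in NE and to 234, 392, 209 and 179 CPM in EE, most of it Cela1. The summed level of 10 smooth muscle markers was 3570 to 5760 CPM in NE against 4222, 4464, 2364 and 697 CPM in EE (all lower, median −0.76), so EE 4 was the lowest. Medians of the other lists were −0.31 (fibroblast, 8 of 8 lower), −0.35 (endothelium, 5 of 7), −0.26 (macrophage, 8 of 8), −0.51 (fat cell, 6 of 6 tested) and −0.69 (plasma cell, 6 of 7 tested). In these lists EE 3 and EE 4 differed. The fibroblast sum was 1572 to 1800 CPM in NE against 1252, 1961, 2063 and 478 CPM in EE, the macrophage sum 256 to 292 CPM and 200, 242, 331 and 112 CPM, and the endothelium sum 166 to 187 CPM and 163, 173, 184 and 91.8 CPM. EE 4 was thus the lowest library in all 3, and EE 3 lay inside or above the NE range. The plasma cell sum was 3207 to 5289 CPM in NE against 2457, 3633, 4061 and 1094 CPM in EE, and the fat cell sum 60 to 176 CPM and 68.2, 171, 52.3 and 9.99 CPM.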

How the data were processed

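Distal colon RNA was depleted of ribosomal RNA and sequenced as stranded, single-end libraries with reads of 50 bases, per the labels' protocols. Novoalign 2.08.01, DESeq 1.14.0 and build mm10 are named in the submitters' processing notes. For the annotation, the counting program and strand use, nothing is given in the sources used here. The authors deposited raw read counts for 16130 genes, of which the smallest total over the 8 libraries was 12. The deposited table also holds a log2 fold change by the authors and FDR values (adjusted p-values), per the file headers.

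Genes were chosen by symbol, and the enzyme and marker lists were fixed, with earlier results of these data known. Counts were analysed with edgeR 4.0.16 (R 4.3.3): filterByExpr (minimum count 10, 14311 genes kept), TMM scaling, the robust quasi-likelihood test of EE against NE, and Benjamini-Hochberg adjustment over all genes with a threshold of 0.05. CPM are TMM-scaled, with a prior count of 2 for log2 CPM. The SE is the size of the log2 fold change divided by the square root of F. Levels between genes are per kb of exon (GENCODE M21). The biological coefficient of variation was 0.219. Read depth limits rare genes, and limits on counts of 0 (3 counts) cover counting error only.

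Named genes were, in each class, the 3 with the smallest p, the 2 with the highest CPM, the largest opposite change, and those of at least 1 CPM whose groups did not overlap; in each companion list they were the 2 with the smallest p and the 1 with the highest CPM. Other enzyme genes are named to account for their class. Alternatives were DESeq2 1.42.0, limma-voom (limma 3.58.1), RLE and upper-quartile scaling, 2 other filters, a block for the replicate number, leaving out single libraries and a threshold of 0.1; DESeq2 without EE 4 was chosen after seeing the data. An adjusted p was missing from DESeq2 for 22 genes. Tested on counts simulated for EE against NE over 14311 genes, edgeR recovered 66 of 100 genes changed 2-fold and 96 of 100 changed 4-fold, with 6 false calls. In the real libraries Aox4 had a log2 fold change of 1.53 with an adjusted p of 0.520 by edgeR. Whether that recovery holds for libraries that differ as EE 3 and EE 4 do was not tested. Protein identities were planned and not computed, since no protein table was used here.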

Additional observations from a re-analysis of the deposited data

Results flagged for a closer look

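Within a group of 4 libraries, 1 value stood far from the other 3 in 7 of the 150 groups checked (75 quantities in each of the 2 groups), where chance flags about 1 in 20. Cyp3a13 had 190.6 CPM in NE 4 against 239 to 248 CPM in the other NE libraries, and the family 3 P450 sum, most of which is Cyp3a13, had 196.1 CPM there against 244 to 251 CPM. Ugt2b34 had 834.6 CPM in NE 1 against 690 to 700 CPM. Gstm7 had 23.84 CPM in NE 1 against 34.3 to 35.9 CPM. Gsta3 had 62.16 CPM in NE 4 against 29.8 to 34.5 CPM. Among the other P450 families, Cyp27a1 had 28.71 CPM in EE 2 against 65.1 to 70.1 CPM in the other EE libraries, and Cyp51 had 375.9 CPM in EE 2 against 266 to 280 CPM.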

How the results depend on the processing

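The count of enzyme genes called stayed at 0 under every setting tried, and over all genes it was 0 except for 16 with DESeq2, 6 with DESeq2 without EE 4 and, over single libraries left out, 0 to 1 (1 without EE 2). Of the 65 tested enzyme genes 46 lower and 7 higher genes had the same sign under every setting and 12 did not. Lower genes under an unadjusted p of 0.05 numbered 11 in the report, 19 with limma-voom, 6 with DESeq2 without EE 4, and 5 to 26 with single libraries left out: 5 without NE 1, 7 without NE 2, 6 without NE 3, 17 without EE 1, 26 without EE 2, and 6 without EE 3 or EE 4. The share of all genes that was lower under that limit was 3.75% in the report, 5.79% with limma-voom and 2.38% with DESeq2 without EE 4. It was 1.68% to 9.15% with single libraries left out. Higher enzyme genes numbered 2 to 4 (2 without NE 1 or NE 2). Medians ranged from −0.0305 to 0.326 for GST mu and from −1.16 to −0.38 for all UGT with single libraries left out.

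The deviations of libraries of the same number correlated at 0.25, 0.01, −0.18 and −0.04 for numbers 1 to 4. Only NE 1 correlated best with its own number. The outlying EE 4 enters the EE mean from which the deviations were taken, and the labels give no pairing. Whether libraries of the same number share more than the number therefore cannot be decided here. With the replicate number as a block, 17 lower enzyme genes had an unadjusted p under 0.05, against 5.39% of all genes. Gsta4 was then at −0.00651 in place of 0.0122.

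With single libraries left out some genes changed sign, and their log2 fold changes then spanned 0. Gsta4 ranged from −0.123 to 0.128, and lay below 0 without NE 2, EE 1 or EE 2; it was −0.0114 with limma-voom. Gsta1 ranged from −0.603 to 0.0402, and lay above 0 without EE 3 or EE 4; it was 0.00771 with DESeq2 without EE 4. Cyp2c55 ranged from −0.781 to 0.0185, and lay above 0 without EE 4; it was 0.0176 with DESeq2 without EE 4. Cyp51 ranged from −0.245 to 0.0433 (above 0 without NE 1), Cyp3a44 from −0.730 to 0.101 (above 0 without NE 3) and Gstz1 from −0.146 to 0.00850 (above 0 without NE 4). Ugt2b35 ranged from −0.0401 to 0.294, and lay below 0 without NE 2 or EE 3. The cause was not tested.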
